A study of Mus musculus with 6 samples.

Results

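The genes described here are 10 regulators of phosphate balance and mineral deposition, Fgf23, Dmp1, Mepe, Phex, Galnt3, Fam20c, Enpp1, Ank, Slc20a1 and Slc20a2, taken by symbol from the 55484 genes of the tables. All 10 matched 1 row in either table and all 10 were among the 15508 genes that the authors tested. RNA was taken from femoral bone of 12-week-old C57BL/6 males of wild-type genotype: 3 libraries of sedentary mice (ND/SED) and 3 of mice with a running wheel (ND/WCR). Every mouse ate normal chow and was housed alone, from 6 weeks of age and for 6 weeks, and the groups differed in free access to the wheel. For each gene the authors deposited a pooled FPKM of either group, a fragment count scaled for transcript length and depth, with the bounds of an interval. No value of a single mouse was used here, so a level below is the authors' group value, and a difference carried by 1 mouse would look like a difference of the group.

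Bone takes part in phosphate balance as an endocrine organ. Osteocytes, the cells buried in the mineral, secrete the hormone FGF23, which acts through FGF receptors and klotho in the kidney to raise phosphate loss and to lower active vitamin D. Loss of PHEX, a membrane endopeptidase, or of the matrix protein DMP1 raises FGF23 and leads to soft bone; the O-glycosyltransferase GALNT3 protects FGF23 from cleavage by furin-type convertases, and the secretory kinase FAM20C phosphorylates FGF23 and matrix proteins. Mineral growth itself depends on the balance of phosphate, imported by the transporters encoded by Slc20a1 and Slc20a2, and of pyrophosphate, an inhibitor of mineral that ENPP1 makes and that ANK brings out of the cell.

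Fgf23 was lower in the running mice and Mepe was higher, and the other 8 genes did not pass the authors' test. A gene was called when its q-value, the p-value adjusted over all tested genes, lay under 0.05 in the authors' deposited table. By this rule 1 of the 10 genes was called higher and 1 lower; among all tested genes 0.941% were called, 0.445% higher and 0.497% lower. The 10 genes had a median log2 fold, running against sedentary and computed as log2(FPKM + 0.1), of 0.16, with 6 of them above 0, against a median of -0.01 and 48.2% above 0 over all tested genes. The called genes, both known as osteocyte genes, moved in opposite directions. Under other call rules the members called were also Fgf23 and Mepe with q under 0.1 (1.23% of all tested genes), with q under 0.01 (0.696%) and with q recomputed over genes with FPKM of at least 1 in either group (1.04%). Fgf23 met that FPKM limit through the sedentary group alone, so its call there adds no support. Fgf23 and Mepe were both at the authors' smallest q, 0.00718, and the next lowest of the 10 genes was at 0.788. The other q thresholds could therefore not change the count. Only Fgf23 was called when the intervals also had to be apart (0.445%) or the log2 fold had to be at least 1 in size (0.464%).

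The bases before the annotated starts of Fgf23 and Mepe, the genes called, and of Dmp1, an osteocyte gene that was not called, are shown for comparison of the regions from which they are transcribed. Of the 10 genes, 9 had an entry among the RefSeq start regions (GRCm38.p6), and each sequence is the 250 bases before the start, written 5′ to 3′; for Dmp1 that start lies 4 bases from the one in GENCODE. Capitals mark TTTAAA, an A and T rich hexamer of the TATA type, and TGTGGT, the core letters bound by RUNX factors, which reads ACCACA on the other strand.
Fgf23 (chr6:127072652-127072901, plus strand): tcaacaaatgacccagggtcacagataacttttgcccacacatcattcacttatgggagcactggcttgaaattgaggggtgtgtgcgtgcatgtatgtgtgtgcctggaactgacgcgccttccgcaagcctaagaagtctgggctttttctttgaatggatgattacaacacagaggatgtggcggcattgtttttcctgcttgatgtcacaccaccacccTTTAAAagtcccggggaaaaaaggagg
Mepe (chr5:104325079-104325328, plus strand): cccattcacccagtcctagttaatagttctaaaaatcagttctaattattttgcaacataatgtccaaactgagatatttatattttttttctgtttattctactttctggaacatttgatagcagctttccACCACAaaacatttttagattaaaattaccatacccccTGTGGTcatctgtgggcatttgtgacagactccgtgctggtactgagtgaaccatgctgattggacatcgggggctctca
Dmp1 (chr5:104202367-104202616, plus strand): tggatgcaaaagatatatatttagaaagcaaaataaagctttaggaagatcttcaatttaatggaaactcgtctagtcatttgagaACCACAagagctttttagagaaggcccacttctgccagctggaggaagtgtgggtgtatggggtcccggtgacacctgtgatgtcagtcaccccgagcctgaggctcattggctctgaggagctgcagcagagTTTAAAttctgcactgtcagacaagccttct
TTTAAA, which reads the same on both strands, began 27 bases before the start in Fgf23, 31 in Dmp1 and 56 in Phex, and 12.1% of all 32851 such regions held it. Mepe held none in this window. TGTGGT, searched on both strands, occurred in Mepe at 2 places, beginning 118 and 80 bases before the start, and at 1 place in Dmp1, Enpp1 and Slc20a1, against 14.0% of all regions; the Fgf23 window held none. These matches describe the letters only, and no factor was measured at them.

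Fgf23 (ENSMUSG00000000182; chromosome 6, 127072902 to 127081408, plus strand, GRCm38; 1 transcript of 3 exons and 1814 bases) encodes the hormone. Its level was 3.36 FPKM in sedentary mice, with an authors' interval of 2.05 to 4.68. In running mice its level was 0.288 FPKM, with an interval of 0.0395 to 0.536. Its intervals did not overlap, which held for 1 of the 10 genes and for 0.574% of all tested genes; the lower bound of the sedentary group was 3.82 times the upper bound of the running group. The level fell 11.7-fold, with a 95% interval of 4.62 to 29.6. In the authors' deposited table the log2 fold was -3.55, with a standard error of 0.68 derived from the deposited intervals, and q was 0.00718. That q is the smallest in the table, shared by 108 genes. By size of the test statistic Fgf23 stood at rank 12 of the tested genes that had one. The statistic was missing for 18 tested genes. In whole bone, fewer cells of a type and less RNA per cell cannot be told apart, for Fgf23 as for the genes that follow.

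The fall of Fgf23 rested on few fragments in the running mice. In single-exon genes the lowest values of FPKM multiplied by a shortened transcript length fell into 3 steps per group. The length was shortened by 250 bases in the sedentary and 255 in the running group. These steps gave the worth of 1 fragment in each library. Spliced single-transcript genes were then checked, but only those whose value lay in the range of these lowest steps. Of them, 235 of 236 in the sedentary group and 236 of 239 in the running group lay within 1% of a step. By these steps the Fgf23 level came from 225 to 259 fragments over the 3 sedentary libraries and from 19 to 23 over the 3 running libraries; the ranges reflect that the share of each library is unknown. At the low end, counting error alone would be an SD of 6.66% in the sedentary and 23.2% in the running group. The authors' bounds, read as 2 SD, lay 39.2% and 86.3% from the level, which makes 1 SD 19.6% and 43.1%. For Mepe the same steps gave 6034 to 6944 fragments in sedentary and 8103 to 10178 in running mice, and for Dmp1 15579 to 17928 and 17599 to 22106.

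The neighbours of Fgf23 on the chromosome were not called. Tigar, which encodes a fructose bisphosphatase and lies 3.71 kb downstream on the other strand, stood at 3.00 FPKM in the sedentary and 2.96 in the running group. Fgf6, another FGF gene, lies 44.7 kb upstream and was listed at 0.0749 and 0.0865 FPKM and was not tested by the authors. No annotated gene overlaps Fgf23. Relative to Dmp1 in the same pooled libraries, Fgf23 was at 2.32% of the Dmp1 level in sedentary and 0.170% in running mice, while Phex was at 23.5% and 23.9%. By the same measure Mepe was at 68.0% and 81.0%, Slc20a1 at 40.2% and 33.9%, Slc20a2 at 14.8% and 12.1%, and Galnt3 at 5.93% and 4.93%. The other 3 genes were at 25.9% and 25.4% (Ank), 9.15% and 9.26% (Fam20c), and 5.78% and 5.42% (Enpp1). None of these ratios was tested. Among called genes the log2 folds nearest to that of Fgf23 were those of the immunoglobulin genes Igkv4-63, Ighv14-4 and Ighg2c (-3.26, -3.05 and -2.98 on the log2(FPKM + 0.1) scale, where Fgf23 was at -3.16); with 2 pooled values per gene this likeness means only a fold of like size.

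**Figure D1:**
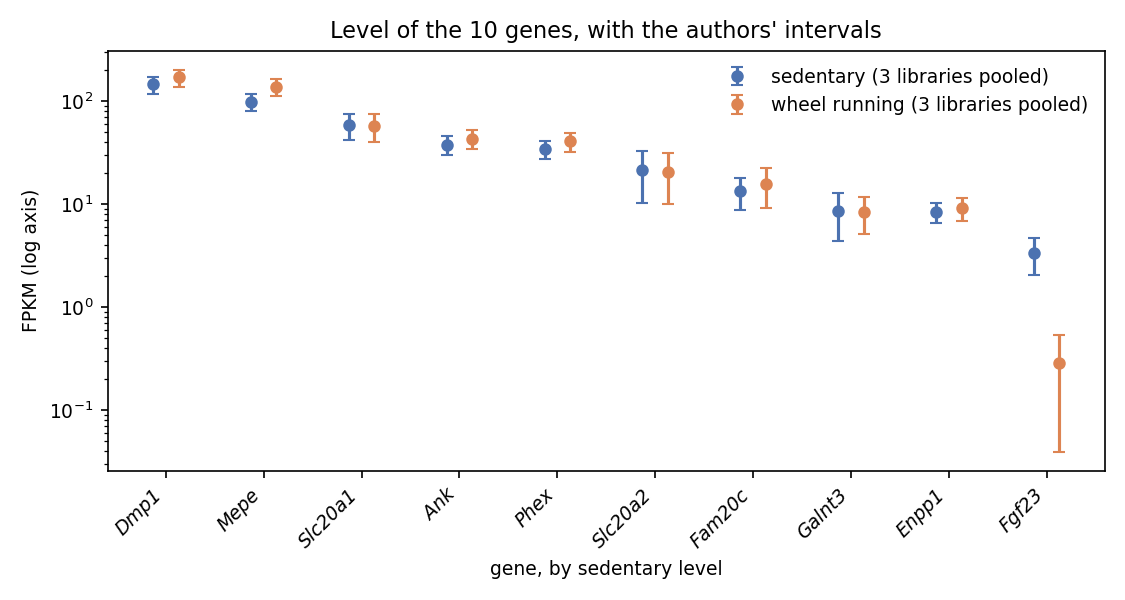
FPKM of the 10 genes in the sedentary group and the running group on a log axis, each point the authors' pooled value of 3 libraries and each bar their interval. The bars of Fgf23 (3.36 and 0.288 FPKM) are apart and those of the other 9 genes overlap between the groups.

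Mepe, Dmp1 and Phex, the other osteocyte genes of the set, were each higher in value in the running mice, and 1 of them passed the test. Mepe (chromosome 5, 104325329 to 104338611, plus strand) encodes a matrix phosphoglycoprotein whose acidic fragment binds mineral and inhibits its growth. Its level rose from 98.4 FPKM (interval 80.3 to 116) to 137 FPKM (112 to 162), with overlapping bounds. The fold was 1.39, with a 95% interval of 1.08 to 1.80, and q in the authors' deposited table was 0.00718. This call depended on how the deposited test is read, an alternative added after the data were seen. Taken as a normal score, the deposited test statistic of Mepe, 2.55, gives a two-sided p of 0.0107, where the authors' deposited table gives 5e-05, the smallest p it holds. With the Benjamini-Hochberg adjustment over the tested genes, that reading left Fgf23 called with a q of 0.000271 and Mepe uncalled with a q of 0.99997. It called 0.161% of all tested genes. It put 1.19% of them under an unadjusted p of 0.05, a smaller share than expected if no gene changed. Its q for Mepe therefore does not show that Mepe was unchanged.

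Dmp1 (chromosome 5, 104202613 to 104214102, plus strand), whose product nucleates mineral and restrains FGF23, had the highest level of the 10 genes. It stood at 145 FPKM (118 to 171) in sedentary and 169 FPKM (138 to 200) in running mice. The fold of 1.17 had a 95% interval of 0.906 to 1.51, and q in the authors' deposited table was 0.788. Phex (chromosome X, 157162075 to 157415312, minus strand), which encodes the endopeptidase lost in X-linked hypophosphataemia, stood at 34.0 FPKM (27.1 to 40.9) and 40.4 FPKM (31.9 to 48.9). The fold of 1.19 had an interval of 0.892 to 1.58, with a q of 0.805 in the authors' deposited table. Before adjustment, 4 of the 10 genes had a p under 0.05, against 5.65% of all tested genes. Of these, 3 had the higher level in running mice (Mepe, Dmp1 and Phex; 3.42% of all tested genes) and 1 the lower (Fgf23; 2.22%), by p in the authors' deposited table. With the p of the statistic read as a normal score, 2 of the 10 (Fgf23 and Mepe) were under 0.05, against 1.19% of all tested genes, and Dmp1 and Phex were at 0.229 and 0.239.

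**Figure D2:**
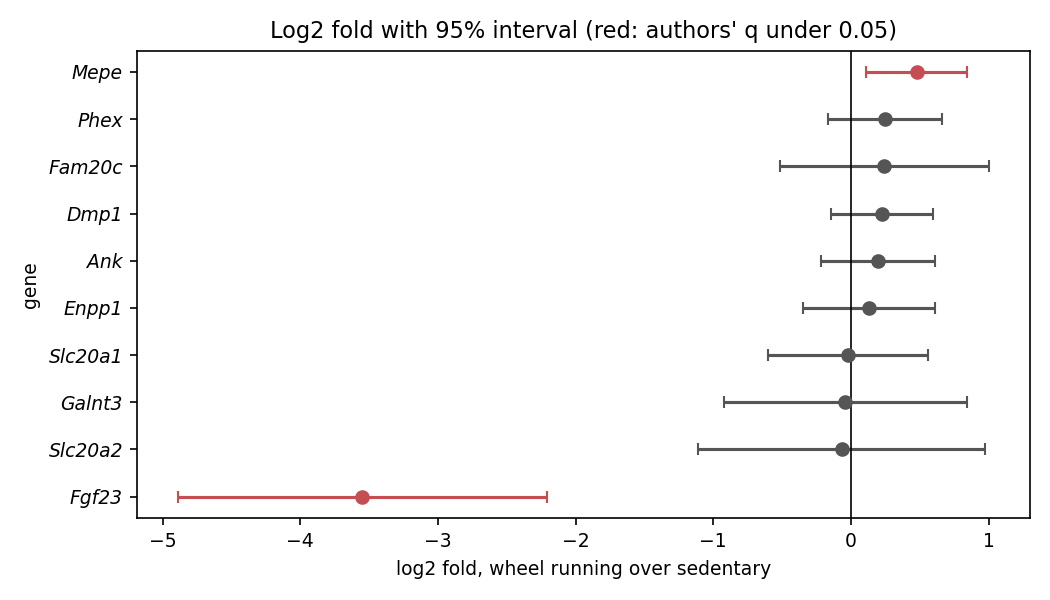
Log2 fold of running over sedentary mice in the authors' deposited table for each of the 10 genes, with a 95% interval from the deposited intervals; red marks q under 0.05. Fgf23 lies at -3.55, Mepe at 0.48, and the other 8 intervals include 0.

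Dmp1 and Mepe belong to a row of acidic matrix genes on chromosome 5, the SIBLING cluster, which spans 270 kb and whose 5 genes lie on the plus strand in the order Dspp, Dmp1, Ibsp, Mepe and Spp1. Dspp, a dentin gene, was listed at 0 in both groups. Ibsp, which encodes bone sialoprotein and lies 13.9 kb upstream of Mepe, stood at 562 FPKM in sedentary and 666 FPKM in running mice and was not called. Spp1, which encodes osteopontin and lies 96.5 kb downstream of Mepe, stood at 1416 and 1578 FPKM and was not called. The 4 genes with a level all had positive log2 folds in the authors' deposited table, 0.23 for Dmp1, 0.24 for Ibsp, 0.48 for Mepe and 0.16 for Spp1. Their standard errors ran from 0.19 to 0.22, and the differences between these folds were not tested. The called genes nearest to Mepe in log2 fold (0.48) were Cdkn1a, Sost and Cd163, each also at 0.48.

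The enzymes that modify FGF23 did not pass the test. Galnt3 (chromosome 2, 66082766 to 66124994, minus strand) had 8.58 FPKM (4.41 to 12.8) in the sedentary and 8.35 FPKM (5.09 to 11.6) in the running group. Its fold was 0.973, and the wide interval of 0.528 to 1.79 would hold a sizeable change in either direction. Fam20c (chromosome 5, 138754514 to 138810077, plus strand) stood at 13.2 FPKM (8.79 to 17.7) and 15.7 FPKM (9.08 to 22.3), a fold of 1.18 with an interval of 0.698 to 2.01. The q in the authors' deposited table was 0.9997 for Galnt3 and Fam20c alike, and for the 4 genes that follow.

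The pyrophosphate genes and the phosphate importers did not pass the test either. Enpp1 (chromosome 10, 24637914 to 24712159, minus strand) stood at 8.37 FPKM (6.50 to 10.2) in sedentary and 9.17 FPKM (6.84 to 11.5) in running mice, a fold of 1.096 with an interval of 0.787 to 1.53. Ank (chromosome 15, 27466677 to 27594909, plus strand) stood at 37.5 FPKM (29.6 to 45.5) and 43.1 FPKM (34.4 to 51.8), a fold of 1.15 with an interval of 0.862 to 1.53. The source and the exporter of extracellular pyrophosphate had slightly higher values in running mice, without a call. Slc20a1 (chromosome 2, 129198764 to 129211616, plus strand) stood at 58.1 FPKM (41.7 to 74.6) and 57.4 FPKM (40.2 to 74.5), a fold of 0.987 with an interval of 0.659 to 1.48. Slc20a2 (chromosome 8, 22476788 to 22569612, plus strand) stood at 21.4 FPKM (10.2 to 32.7) and 20.4 FPKM (9.94 to 31.0), a fold of 0.954 with an interval of 0.464 to 1.96. Exons of 3 of the 10 genes overlap another annotated gene: Slc20a1 shares 280 bases with Gm4430 and 452 bases with 9830144P21Rik, and Slc20a2 shares 95 bases with Smim19, all on the opposite strand, while Ank holds the microRNA Mir7117. The labels do not say if strand entered the counting, and fragments of the partners could be part of these values.

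In level, which FPKM allows to be compared between genes per length, the order was nearly the same in the groups. In sedentary mice it ran Dmp1, Mepe, Slc20a1, Ank, Phex, Slc20a2, Fam20c, Galnt3, Enpp1 and Fgf23, and in running mice Galnt3 and Enpp1 changed places. Of the 9 pairs of neighbours in that order, 3 had intervals apart in sedentary mice (Dmp1 above Mepe, Mepe above Slc20a1, and Enpp1 above Fgf23). In running mice 3 were apart (Mepe above Slc20a1, Phex above Slc20a2, and Galnt3 above Fgf23), and Dmp1 and Mepe overlapped. The highest level was 43.0 times the lowest in sedentary and 589 times the lowest in running mice, with Fgf23 the lowest each time.

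**Figure D3:**
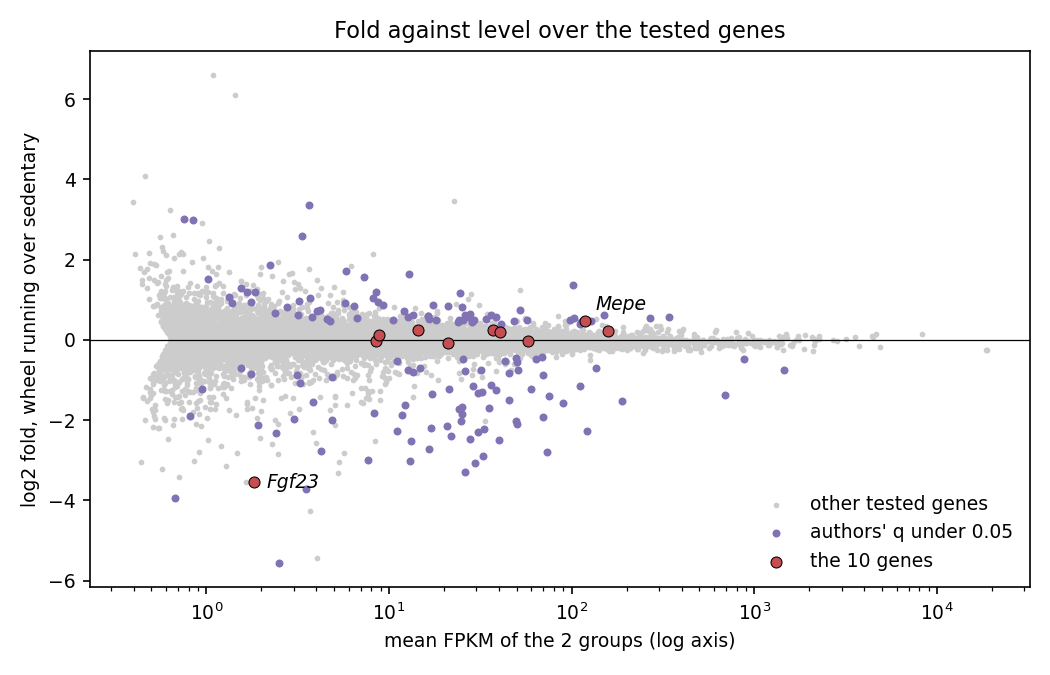
Log2 fold of running over sedentary mice in the authors' deposited table against the mean FPKM of the groups (log axis), with tested genes in grey, called genes in purple and the 10 genes in red; genes with 0 in a group are not drawn. Fgf23 lies at -3.55 among genes of low level, and the other 9 genes lie between -0.07 and 0.48.

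Receptors, other FGF family genes and response genes of the FGF pathway were not called. Among 7 genes for FGF receptors and klothos, 4 were tested, none was called, and the median log2 fold on the log2(FPKM + 0.1) scale was 0.10, or 0.25 over the 4 tested. Fgfr1, the main FGF23 receptor with klotho, stood at 41.5 FPKM in the sedentary and 49.3 in the running group, and Fgfr3 at 6.77 and 8.81. Fgfr2 stood at 30.4 and 36.2 FPKM, with wide intervals of 0 to 61.1 and 0 to 73.2. Klotho itself (Kl) was listed at 0.00479 and 0.00395 FPKM and was not tested. Of 21 other FGF family genes 6 were tested and none was called. Fgf1, a broadly acting FGF, stood at 5.58 and 8.68 FPKM, Fgf7 at 4.36 and 3.61, and Fgf13 at 2.99 and 3.46. Of 10 genes that FGF signalling induces, 9 were tested and none was called (median 0.11, and 0.13 over those tested). The phosphatase gene Dusp6 stood at 24.1 and 23.1 FPKM and the transcription factor gene Egr1 at 20.9 and 25.1 FPKM. The 6 tested FGF family genes had log2 folds from -0.26 to 1.04 on that scale, against -3.16 for Fgf23. Most of the 6 were measured loosely: standard errors derived from the deposited intervals ran from 0.44 (Fgf11) to 1.45 (Fgf2, the highest fold).

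Processing enzymes, vitamin D and parathyroid hormone (PTH) signalling genes and other phosphate genes gave no call. The 17 listed convertases and other GALNT and FAM20 enzymes were all tested (median 0.07). Furin, a convertase that can cleave FGF23, stood at 21.5 FPKM in the sedentary and 23.1 in the running group, and Pcsk6, another convertase, at 21.7 and 26.3. Galnt1 stood at 65.6 and 66.6 FPKM, and Galnt2 at 23.2 and 22.8 with intervals that reach 0. Of 11 vitamin D and PTH genes 7 were tested (median 0.19, and 0.04 over those tested). The vitamin D receptor gene Vdr stood at 14.5 and 18.2 FPKM and the PTH receptor gene Pth1r at 43.0 and 49.0. Gnas, the most expressed of the list, stood at 371 and 382 FPKM, and Rxrb at 35.5 and 35.2. Cyp24a1, which encodes the enzyme that inactivates vitamin D, was listed at 0 in both groups. Of 5 other phosphate transporters 2 were tested (median 0.01), and the exporter gene Xpr1 stood at 22.4 and 22.7 FPKM. Of 13 phosphatase and pyrophosphate genes 12 were tested (median 0.03, and 0.04 over those tested). Alpl, which encodes the phosphatase that destroys pyrophosphate in bone, stood at 84.9 and 102 FPKM. Phospho1, a phosphatase of matrix vesicles, stood at 104 and 102 FPKM. Of 9 other SIBLING and mineral-binding genes 6 were tested (median 0.16, and 0.11 over those tested). Sparc, which encodes osteonectin, stood at 3475 and 3642 FPKM.

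Of 14 genes of iron, oxygen, calcium and inflammatory signalling that have been linked to Fgf23 transcription, 1 was called, lower in running mice. In this list 10 genes had a log2 fold under 0 and 4 above 0 (median -0.06). Over all tested genes 0.497% were called lower and 48.2% had a log2 fold above 0. Il1b, which encodes interleukin-1 beta, an inflammatory cytokine that raises Fgf23 in bone, fell from 15.8 FPKM (11.1 to 20.6) to 9.48 FPKM (6.58 to 12.4), with overlapping intervals and q = 0.00718 in the authors' deposited table. With the statistic read as a normal score Il1b was not called. Hmox1, which encodes the haem-degrading oxygenase, stood at 226 and 287 FPKM without a call (q of 0.0890 in the authors' deposited table). Tfrc, the transferrin receptor gene, stood at 248 and 210 FPKM, Epor, the erythropoietin receptor gene, at 41.5 and 45.2, and Lcn2, which encodes lipocalin 2, at 1688 and 1511. With 2 pooled values per gene, no relation between these genes and Fgf23 could be tested.

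**Figure D4:**
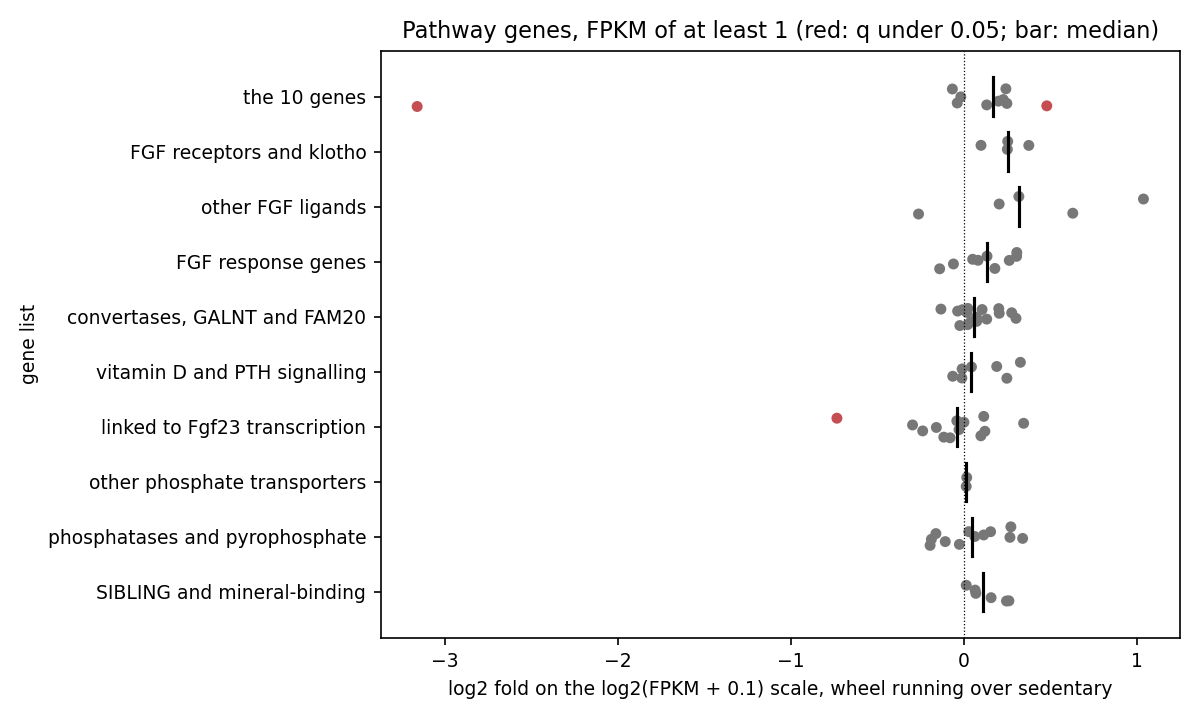
Log2 fold of running over sedentary mice, computed as log2(FPKM + 0.1), for the 10 genes and for 74 genes of the 9 pathway lists that reached an FPKM of 1 in either group, 1 point per gene, bars at the medians and red for q under 0.05. Fgf23 (-3.16), Mepe (0.48) and Il1b (-0.73) are the genes in red. The list labelled other FGF ligands holds other FGF family genes, not all of them ligands.

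The tissue held bone and marrow cells, and the genes of several cell types are given beside the 10 genes for that reason. Osteoblast and osteocyte markers were present: all 10 osteoblast genes were tested, with Bglap, the osteocalcin gene, at 3157 FPKM in sedentary mice and 3184 in runners, and 9 of 10 further osteocyte genes, while Pdpn was listed at 0 in both groups. All 10 osteoblast genes had a log2 fold above 0 (median 0.21; summed level 5642 FPKM in the sedentary and 5897 in the running group), as had 8 of 10 osteocyte genes (median 0.22; 287 and 325 FPKM), of which Sost was called, from 47.4 to 66.2 FPKM. Mepe, Dmp1 and Phex had values in the same direction as these lists, and Fgf23 the opposite one. Skeletal muscle genes (10 of 10 above 0, median 0.28; summed level 1720 and 2088 FPKM) and adipocyte genes (7 of 8, median 0.51; 348 and 501 FPKM) were higher in value, each with 3 calls (Myh1, Myh2 and Tcap of muscle fibres, and Adipoq, Fabp4 and Cfd of fat cells). The adipocyte gene not above 0, Lep, was not tested. Over all tested genes 0.445% were called higher, 0.497% were called lower and 48.2% had a log2 fold above 0. Endothelial genes (5 of 6, median 0.15; 92.9 and 102 FPKM), osteoclast genes (6 of 8, median 0.08; 1817 and 1932 FPKM), erythroid genes (4 of 7, median 0.03; 8855 and 9368 FPKM) and chondrocyte genes (4 of 8, median -0.004; 306 and 300.1 FPKM) gave no call. Neutrophil genes were lower in value (0 of 8 above 0, median -0.19; 50998 and 43223 FPKM) without a call, and of the B and plasma cell genes (1 of 8, median -0.20; 498 and 396 FPKM) Jchain was called lower. With the statistic read as a normal score none of these calls, Sost, the 3 muscle genes, the 3 adipocyte genes and Jchain, was kept. Several summed levels rest mostly on a few genes of the list. In sedentary mice Gja1 and Mmp14 stood at 123 and 84.6 FPKM in the osteocyte list. S100a8 and S100a9 stood at 20105 and 20406 FPKM in the neutrophil list. The part of these cell types in the values of Fgf23 and Mepe was not tested.

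**Figure D5:**
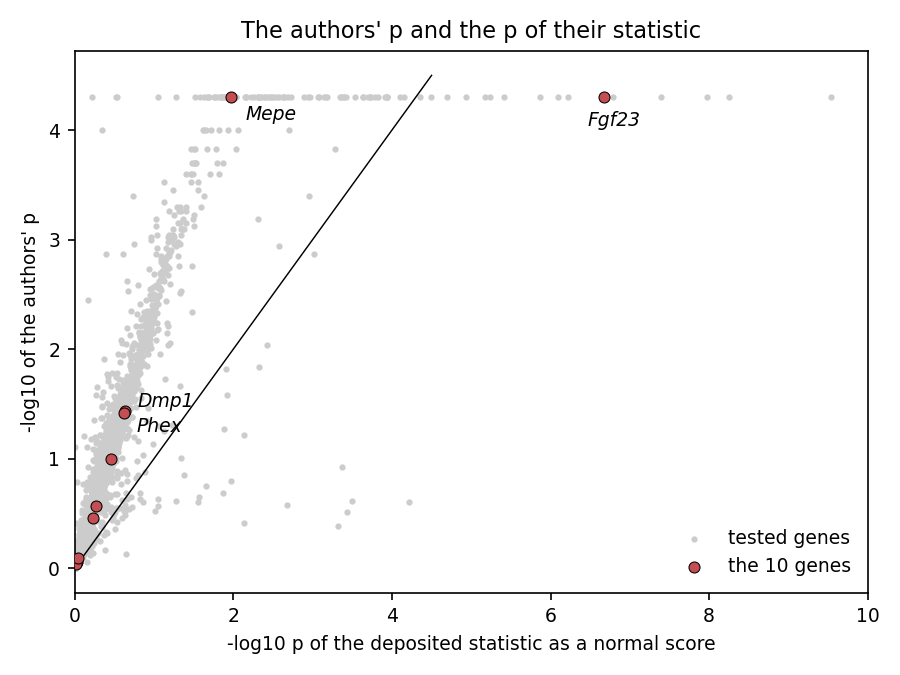
The authors' p against the two-sided p of their own test statistic read as a normal score, as -log10 values, with tested genes in grey and the 10 genes in red; the line marks equal values, and 5 genes lie beyond the right edge. Mepe and Fgf23 share the smallest authors' p of 5e-05, but by the statistic Mepe has 0.0107 and Fgf23 2.1e-07.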

How the data were processed

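TRIzol was used for extraction and a NEBNext Ultra Directional kit for the libraries, from polyadenylated RNA, per the labels. GRCm38 and the tools Trimmomatic 0.39, HISAT2 2.2.1, SAMtools 1.10 and Cufflinks 2.2.1 are credited to the submitters' processing notes, which state neither role nor setting, and the columns bear Cuffdiff's names, per the file headers. The authors deposited pooled FPKM with bounds, a log2 fold, a test statistic (a score), and p-values and q-values. The labels name 3 mice per group, but no value of a mouse was used here. Library totals were not used here. The steps in low FPKM scaled by length gave rounded depths, if a group value is the mean of 3 libraries. These were 14300000 to 16400000 fragments per sedentary and 13800000 to 17400000 per running library. They are library totals only if counts were not rescaled between libraries, which the processing notes do not state.

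The deposited statistic equalled the log2 fold divided by a standard error from the bounds, taken as 2 SD from the FPKM, within 1% in all 15490 tested genes with FPKM above 0 in each group. That standard error gave the 95% intervals. They hold the authors' model of the spread; whether it covers the spread between mice could not be checked. Folds over lists used a pseudocount of 0.1, which understates changes of low genes. The 10 genes and all lists were chosen with earlier results of these data known, and lists were given no test. Named genes were the 10 genes, the called members of each list and up to 4 of its most expressed uncalled members, the neighbours of called genes, and the 3 called genes nearest in fold to Fgf23 and to Mepe. Kl, Cyp24a1, Pdpn, the genes of the chromosome 5 row and the genes that overlap exons were named after their values were seen. Coordinates are those of GENCODE vM21. Alternatives were other q thresholds, pseudocounts and scalings, filters on low FPKM, and the statistic read as a normal score. Scripts used Python 3.11.15 with pandas 2.3.3 and SciPy 1.17.1. The calls from the score were run on simulated data whose noise was drawn from the same standard errors. That run cannot show whether the score suits these data.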

Additional observations from a re-analysis of the deposited data

How the results depend on the processing

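No paired analysis was possible because the values used here are 1 per group, with no column for a library, and for the same reason no replicate could be left out. The q thresholds of 0.01 and 0.1 could not move the count of 2 called genes. Fgf23 and Mepe were at a q of 0.00718 and the next gene at 0.788. The count was also the same with q recomputed over genes with FPKM of at least 1 in either group. Fgf23 met that limit only through the sedentary group. The count fell to 1, Fgf23, with intervals apart, an absolute log2 fold of at least 1, or the statistic read as a normal score. The last reading was chosen after seeing the data, and under it Mepe, at a log2 fold of 0.48, was not called (q of 0.99997). The count with an unadjusted p under 0.05 went from 4 to 2. That reading is stricter than the authors' test: their p was the smaller in 99.4% of tested genes, and it kept 24 of their 146 calls. It put 1.19% of all tested genes under an unadjusted p of 0.05, so a call lost under it does not show an unchanged gene. It took to 0 the calls of the Fgf23-linked (1 lower), osteocyte (1 higher), skeletal muscle (3), adipocyte (3), and B and plasma cell (1 lower) lists; with q under 0.1 the Fgf23-linked list had 1 gene called higher, Hmox1. A pseudocount added to both groups cannot change the direction of a fold, and the FPKM listed with the bounds gave the same folds. Neither was therefore a check of direction. The log2 fold of Fgf23 was -3.50 with a pseudocount of 0.01 and -1.76 with 1, against -3.16. Rescaling to the same total turned Galnt3 to 0.0027 and Slc20a1 to 0.024, and rescaling to the same upper quartile turned Slc20a1 to 0.0023; neither gene was called. The median of the chondrocyte list turned to 0.04 when rescaled to the same total; the other 18 list medians kept their sign. The 19 to 23 fragments behind Fgf23 in running mice limit how closely its fold is known.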
